A study of Mus musculus with 10 samples.

Results

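The collagen genes of the embryonic mouse tail bud were taken as every gene whose symbol is Col, a number, the letter a and a number, with Col6a5 left out. This gave 43 of the 38720 gene symbols counted, and the rule reads the symbol alone. RNA sequencing read the microdissected tail bud, the growth zone at the posterior end of the embryo, at E12.5, in a study of how the Lin28/let-7 pathway acts on caudal axis elongation. The Lin28a-induced group (replicates 2 to 5, n = 4) carried TRE-Lin28a, a transgene that doxycycline can switch on, together with RLSL-rtTA, whose activator needs Cre, and FoxD1-Cre, and was treated with doxycycline. The no-Cre group (replicates 6 to 8, n = 3) also carried TRE-Lin28a and RLSL-rtTA and received doxycycline, but had no Cre. The wild-type group (replicates 1 to 3, n = 3) is labelled with no allele and no treatment. FoxD1-Cre limits induction to cells with a history of Foxd1 activity, while the RNA came from the whole dissected piece. The labels do not say how many embryos went into a library or whether each library came from a separate embryo, and p-values therefore measure only how libraries of a label vary.

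Collagens are secreted or membrane-bound proteins in which alpha chains wind around each other over a repeating glycine-rich stretch, and each chain has a gene of its own. Fibrillar collagens form the cords of skin, bone, tendon and cartilage, type IV collagens form the sheet-like network of basement membranes, and fibril-associated collagens coat fibrils. In the tail bud, such matrix surrounds the neural tube, notochord, somites, surface ectoderm and vessels. Lin28a encodes a protein that binds let-7 precursors and stops their processing; mature let-7 microRNAs lower the output of messages carrying matches to their seed.

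The libraries held 21762668 to 39517946 counts. Lin28a stood at 605 to 750 CPM (counts divided by each library's normalised total) in the 4 Lin28a-induced libraries, 2.64 to 5.03 in the no-Cre libraries and 4.45 to 6.16 in wild type, which matched the labels. The tail bud markers fixed for this work, among them T, Hoxb13 and Wnt3a, were detected in every library, with a summed level of 1565 to 1930 CPM in the transgenic libraries. Wild-type replicates 1 and 3 each stood at 1560 and wild-type replicate 2 at 852. Mitochondrially encoded counts made up 1.85% to 2.69% of each wild-type library and 0.446% to 0.690% of the other libraries. Wild type therefore differs from both transgenic groups in labelled alleles, in labelled doxycycline and in the make-up of its libraries, and these cannot be told apart.

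Of the 43 collagen genes, 11 encode fibrillar chains, 6 type IV, 5 type VI, 9 fibril-associated, 3 hexagonal network, 1 anchoring fibril, 2 multiplexin and 4 transmembrane chains, with Col26a1 and Col28a1 left as other. Together they took 0.185% to 0.232% of all counts. A filter on low counts kept 39 of the 43 genes for testing. The other 4, Col5a3, Col6a4, Col10a1 and Col28a1, had 0 to 16 counts in each library. A mean of at least 1 CPM in some group was reached by 35 genes, at least 10 CPM by 23 and at least 100 CPM by 6.

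On a per-length scale (CPM per kilobase of annotated exon), Col4a1 was the highest collagen of both transgenic groups, at 62.7 ± 8.84 in Lin28a-induced (SD, n = 4) and 65.8 ± 3.39 in no-Cre libraries (SD, n = 3). In wild type the highest was Col18a1, at 86.6 ± 15.1, and Col4a1 stood at 39.1 ± 2.42 (SD, n = 3). Col4a1 encodes a chain found in nearly all basement membranes, and Col18a1 encodes a basement membrane collagen whose carboxyl end is released as endostatin. Col18a1 stood at 49.1 ± 4.29 in Lin28a-induced and 48.7 ± 1.96 in no-Cre libraries. Col4a2 had 41.6, 42.4 and 31.4 in Lin28a-induced, no-Cre and wild-type libraries, and Col5a1 had 21.3, 26.6 and 17.9. By group means Col4a2 and Col5a1 were next in both transgenic groups, while in wild type Col2a1 (26.1) stood between them, with libraries from 12.7 to 35.8 that ran past the range of Col5a1 on both sides. The ranges of Col4a1 and Col18a1 did not overlap in any group, so their order differed between wild type and the transgenic libraries. These 2 genes with Col4a2 and Col5a1 made up 62.8% to 66.2% of collagen counts in Lin28a-induced, 62.5% to 65.4% in no-Cre and 53.3% to 60.8% in wild-type libraries.

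**Figure D1:**
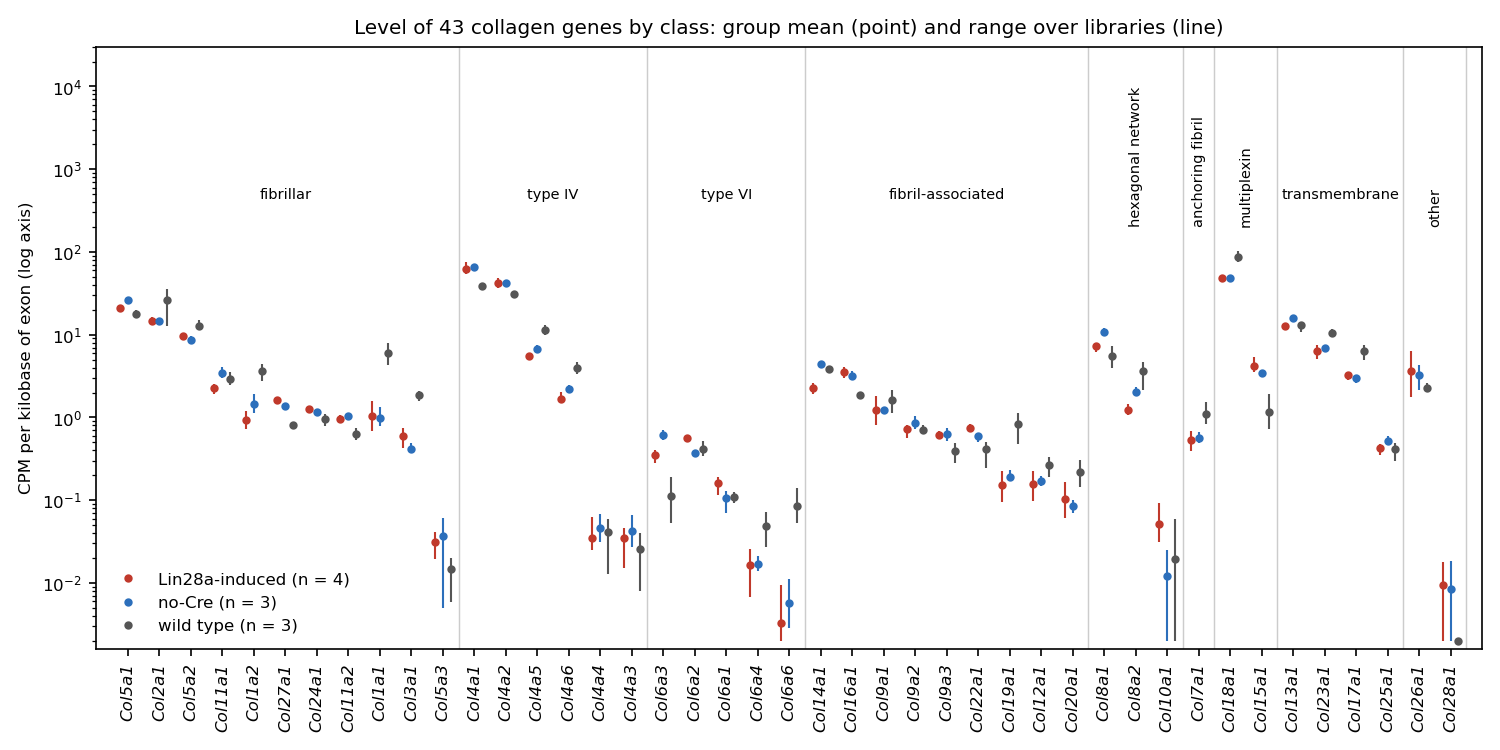
Per-length level (CPM per kilobase of annotated exon, log axis) of the 43 collagen genes, ordered by class and by the no-Cre mean; points are group means, lines run from the lowest to the highest library, and values under 0.002 are drawn at 0.002. Col4a1, Col4a2, Col18a1 and Col5a1 lie highest in both transgenic groups, and in wild type the mean of Col2a1 lies above that of Col5a1; Col4a3, Col4a4, Col5a3, Col10a1 and Col28a1 lie near the bottom.

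Leading chains of the other classes had these per-length levels. Among transmembrane collagens Col13a1, a chain of adhesion sites and the neuromuscular junction, had 12.9, 16.0 and 13.2 CPM per kilobase in Lin28a-induced, no-Cre and wild-type libraries. Among hexagonal network collagens Col8a1, a chain of vessel and corneal matrix, had 7.38, 10.9 and 5.47. Among fibril-associated collagens Col14a1 was highest in no-Cre and wild-type libraries and Col16a1 in Lin28a-induced libraries, with 2.29, 4.40 and 3.81 for Col14a1 and 3.58, 3.18 and 1.86 for Col16a1. Col7a1, the only anchoring fibril chain, had 0.532, 0.558 and 1.11, and no type VI chain reached 1 in any group. Col2a1, the main collagen of cartilage and of the notochord sheath, had 14.5, 14.5 and 26.1, whereas Col1a1 and Col1a2, the chains of bone and skin fibrils, had group means from 0.934 to 6.05. Col10a1, a marker of hypertrophic cartilage, had 0 to 10 counts in a library.

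**Figure D2:**
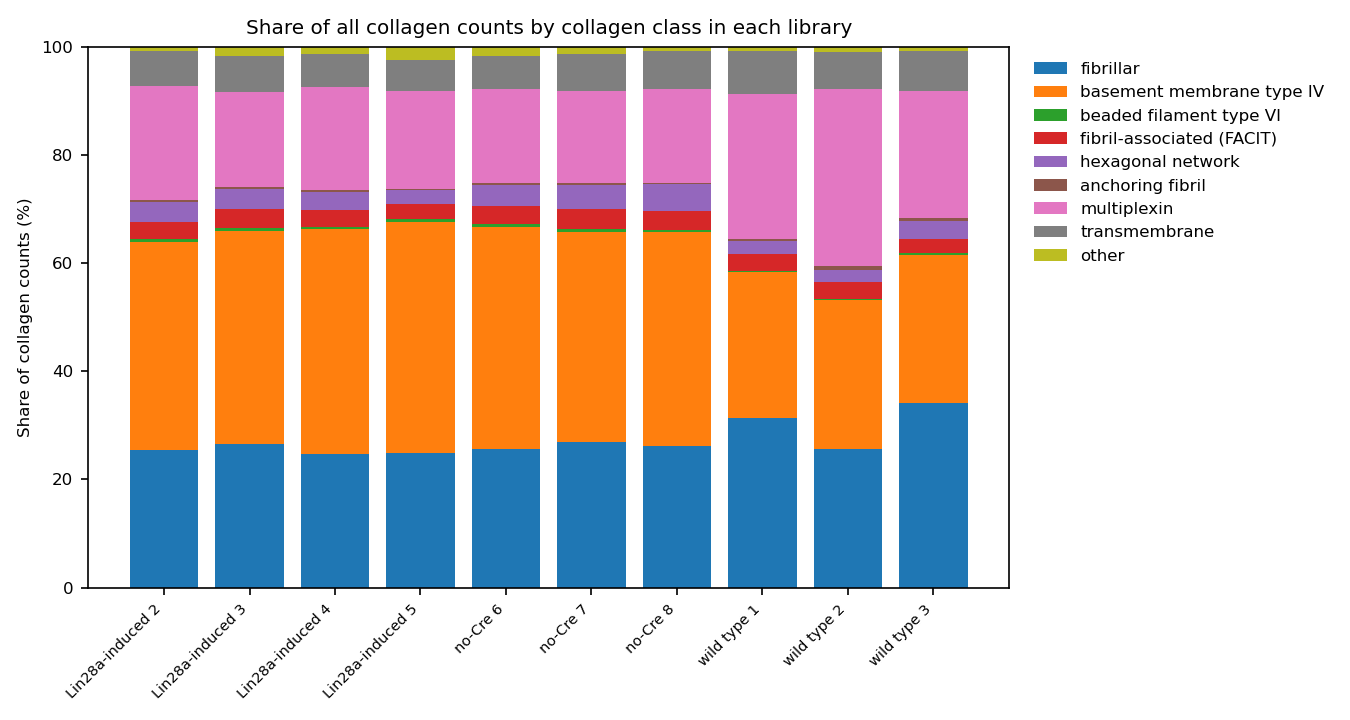
Share of all collagen counts (%, vertical axis from 0 to 100) held by each class in each of the 10 libraries. Type IV chains held 38.5% to 42.7% in the 7 transgenic libraries and 26.9% to 27.5% in wild type, and multiplexins 17.1% to 21.0% and 23.6% to 32.7%.

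The comparison of Lin28a-induced with no-Cre libraries shares TRE-Lin28a, RLSL-rtTA and doxycycline and differs in FoxD1-Cre, and so in Lin28a. An effect of Cre itself and one of Lin28a cannot be told apart. Of the 39 tested collagen genes, 3 were lower and 0 were higher in Lin28a-induced libraries, Col14a1, Col5a1 and Col11a1. That is 7.69% of the tested collagens, beside 2.91% of all 16340 tested genes called in either direction (1.15% lower and 1.76% higher). An unadjusted p under 0.05 was reached by 13 of the 39 (33.3%), beside 16.3% of all tested genes. The median log2 fold change was -0.07 over the collagens and -0.00 over all tested genes. In bulk tissue, fewer cells of a type and less RNA per cell cannot be told apart. Unless another tool is named, adjusted p-values come from edgeR's quasi-likelihood test with Benjamini-Hochberg adjustment over all tested genes, at a threshold of 0.05.

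Col14a1 encodes a fibril-associated collagen that binds the surface of type I collagen fibrils and regulates their diameter. The gene lies on chromosome 15 at 55307750 to 55520803 (plus strand, mm10, GENCODE M21) and has 49 annotated exon blocks. The 4 Lin28a-induced libraries had 13.5, 18.4, 17.2 and 15.2 CPM, and the 3 no-Cre libraries 29.6, 33.8 and 29.2. Wild-type replicates 1 to 3 had 26.4, 28.2 and 25.5. The Lin28a-induced libraries were thus the 4 lowest of the 10 and did not overlap either control. The log2 fold change against no-Cre was -0.94 ± 0.10 (SE), a level 0.521 times that of the control, with an adjusted p of 0.000203. Col14a1 was also lower than in wild type, by -0.73 ± 0.10 on the log2 scale (adjusted p = 5.17e-05). No-Cre and wild-type libraries had a log2 difference of 0.21 ± 0.11, which did not pass (adjusted p = 0.131). The call against no-Cre stood in each of 7 fits that left out 1 library, with adjusted p-values up to 0.00327.

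Col5a1 encodes the main type V chain, which starts the assembly of type I fibrils and sits inside them (chromosome 2, 27886425 to 28039514, plus strand). Lin28a-induced libraries had 169, 186, 179 and 188 CPM, and no-Cre libraries had 225, 221 and 231. Wild-type libraries stood below both groups, at 144, 145 and 167. The groups did not overlap, and the order was wild type, Lin28a-induced, no-Cre. Col5a1 fell by 0.32 ± 0.06 on the log2 scale against no-Cre (0.801 times, adjusted p = 0.0129). Against wild type it was higher in both transgenic groups, by 0.25 ± 0.06 with induction (adjusted p = 0.00395) and by 0.57 ± 0.07 without Cre (adjusted p = 1.69e-05). The call against no-Cre was lost without Lin28a-induced replicate 4 or without any of no-Cre replicates 6, 7 and 8, with adjusted p-values up to 0.0865. Exons of Col5a1 overlap annotated genes of the opposite strand over 2.50% of their bases.

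Col11a1 encodes a chain of type XI collagen, which starts cartilage fibrils much as type V does elsewhere (chromosome 3, 114030540 to 114220718, plus strand). Lin28a-induced libraries had 31.9, 28.1, 24.2 and 30.9 CPM and no-Cre libraries had 38.6, 42.2 and 51.6. Wild-type libraries had 34.1, 31.1 and 45.1 and overlapped both groups. The log2 fold change against no-Cre was -0.61 ± 0.14 (0.653 times, adjusted p = 0.0403). This call was lost when any of the 7 libraries was left out (adjusted p up to 0.174) and with no filter on low counts. Its partner Col11a2 had 6.63 ± 0.663 CPM in Lin28a-induced (SD, n = 4) and 7.08 ± 0.422 in no-Cre libraries (SD, n = 3), with an adjusted p of 0.805.

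**Figure D3:**
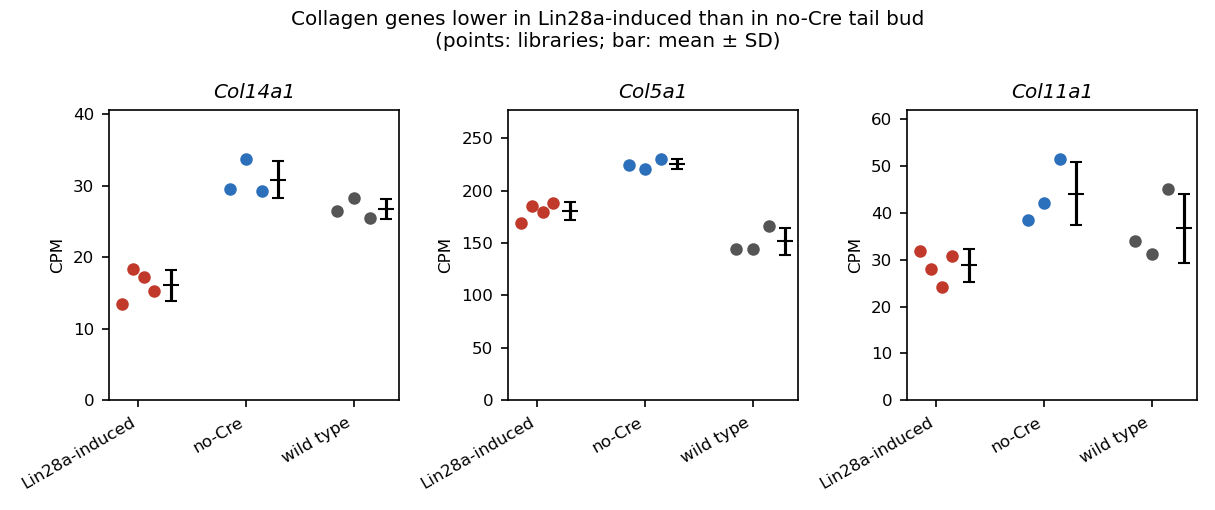
CPM of Col14a1, Col5a1 and Col11a1 in each library (points; axes start at 0), with the mean and SD of each group beside them. The Lin28a-induced libraries lie below every no-Cre library in all 3 panels; wild type lies near no-Cre for Col14a1 and below both groups for Col5a1.

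The other 36 tested collagens did not pass in this comparison, with log2 fold changes from -0.79 to 0.59 and adjusted p-values of at least 0.0766. All 6 type IV chains had negative log2 fold changes, from -0.40 to -0.03, and none passed. The type VIII chains had -0.56 ± 0.18 for Col8a1 (adjusted p = 0.169) and -0.72 ± 0.23 for Col8a2 (adjusted p = 0.122). Col6a3 had -0.79 ± 0.25 (adjusted p = 0.12) and Col6a2 0.59 ± 0.17 (adjusted p = 0.0783), so chains that assemble into the same type VI filaments had opposite signs. The libraries of the 2 groups did not overlap for 11 of the 39 tested collagens (28.2%), near the 23.4% of all tested genes. The number called depended on the test: with DESeq2, 8 of 34 collagens with an adjusted p passed (23.5%), 7 lower and 1 higher, and calls over all genes rose as well, to 6.77%. When only the libraries of these 2 groups were fitted, 10 of 38 passed (26.3%), beside 11.2% of all genes tested in that fit, and of the 10, 9 were lower and Col6a2 was higher. Those lower in that fit were the 3 above with Col13a1, Col4a5, Col4a6, Col6a3, Col8a1 and Col8a2, and Col6a3 also passed with limma-voom (adjusted p = 0.039), which called 3.29% of all genes.

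Of 74 tested genes that fold, process, bind or degrade collagen, 4 were called between these groups (5.41%), beside 2.91% of all tested genes. Of 20 tested genes of collagen folding and modification, 1 was lower, Ppib, a prolyl isomerase of the endoplasmic reticulum, at 91.7 ± 2.4 CPM against 112 ± 1.45 (log2 -0.29, adjusted p = 0.00425). Of 9 collagen receptors, Mrc2, an endocytic receptor that takes up cleaved collagen, was higher (0.33, adjusted p = 0.0231), and Ddr1, a collagen-activated kinase, was lower (-0.21, adjusted p = 0.0495). Of 11 fibril-binding proteoglycans and glycoproteins, Fmod was lower, at 21.1 ± 1.56 against 28.7 ± 1.02 CPM (-0.45, adjusted p = 0.00818). Fmod encodes fibromodulin, a small proteoglycan that binds fibrils. No call was made among 13 genes of propeptide processing and crosslinking, 14 basement membrane partners and 7 collagen-degrading proteases and inhibitors. The list medians ran from -0.14 for receptors to 0.06 for proteases.

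Markers of the cell types that could carry these messages were compared between the same groups, where 2.91% of all tested genes were called. A list of 4 to 13 genes is too short to compare with that share. Several lists held sizeable differences that did not pass. None of 9 cartilage, 7 sclerotome, 10 notochord, 10 endothelial, 7 perivascular, 10 surface ectoderm, 4 skeletal muscle, 5 neural crest, 10 red blood cell, 9 macrophage and 13 tail bud markers tested was called. Among 7 tested mesenchyme markers Pdgfra was lower (-0.24, adjusted p = 0.0417), and among 6 neural progenitor markers Sox3 was lower (-0.92, adjusted p = 0.0138). The summed mesenchyme markers ranged from 261 to 340 CPM in Lin28a-induced and from 320 to 344 in no-Cre libraries. Pdgfra made up most of each sum, with means of 242 of 300 CPM and 285 of 335 CPM. The median log2 difference of the mesenchyme list was 0.33. Log2 differences ran from -0.24 to 1.34 over the mesenchyme markers, from -0.05 to 1.23 over the perivascular and from -1.19 to -0.12 over the neural progenitor markers. All 10 red blood cell markers lay between -0.67 and -0.44, and the other lists ran from -0.79 to 0.84. The part of these cell types in the lower Col14a1, Col5a1 and Col11a1 was not tested. Cartilage markers summed to 200 to 227 CPM and 220 to 231 CPM, and Acan, which encodes the main cartilage proteoglycan, had at most 0.24 CPM in any of these libraries.

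Matches to the let-7 seed are shown because Lin28a acts on let-7, and matches to the miR-29 seed because collagens are known targets of that family. No small RNA was read here. The seed (bases 2 to 8) is in capitals in the microRNAs (RefSeq, GRCm38.p6), and its match is in capitals in the stretches from annotated 3′ UTRs (GENCODE M21). The RefSeq table held 11 mature sequences with the let-7 seed and 3 with the miR-29 seed.
mmu-let-7a-5p: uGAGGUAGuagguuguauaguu
mmu-let-7i-5p: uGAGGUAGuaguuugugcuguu
mmu-miR-29a-3p: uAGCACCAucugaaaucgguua
Col14a1, let-7 match: actgaggaaaCTACCTCctac
Col1a2, let-7 match: aaggtttgaaCTACCTCaaga
Col3a1, let-7 match: cctatgttaaCTACCTCaact
Col5a2, let-7 match: ttagcatgacCTACCTCatct
Col27a1, let-7 match: aaaccttacaCTACCTCagca
Col5a1, miR-29 match: tgaatgtttgTGGTGCTaatc
Col11a1, miR-29 match: tggatttcgtTGGTGCTgtag
Col4a1, miR-29 match: cgtcacaacaTGGTGCTactc

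The 7-base let-7 match CTACCTC was present in 9 of the 43 collagen 3′ UTRs (20.9%), 1 match each, and in 10.4% of 19577 genes with an annotated 3′ UTR. Median lengths were 1049 bases for the collagens and 1121 for all genes. Of the 9, only Col14a1 passed between Lin28a-induced and no-Cre libraries, and it was lower; its match lies at bases 447 to 453 of a 791-base UTR and is not followed by A. The 9 log2 fold changes ran from -0.94 to 0.51 with a median of 0.10, beside -0.10 for the 30 tested collagens without a match. Col1a2, Col3a1, Col5a2 and Col27a1 held the longer match CTACCTCA, and their log2 fold changes were -0.64, 0.51, 0.14 and 0.23, none of which passed. The miR-29 match TGGTGCT was present in 24 of the 43 (55.8%), with 45 matches in all, and in 14.4% of all genes. Col5a1, with 4 matches, and Col11a1, with 2, were the members of that group that passed; the other 21 tested did not. A match is a description of the sequence and not evidence that the microRNA acts there.

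Against wild type many more collagens differed, as did many more genes of every kind. In Lin28a-induced libraries 12 collagens were higher and 17 lower, 29 of 39 (74.4%), beside 49.3% of all tested genes. In no-Cre libraries 11 were higher and 14 lower, 25 of 39 (64.1%), beside 42.5% of all tested genes. The libraries did not overlap with wild type for 26 (66.7%) and 27 (69.2%) of the 39, beside 49.3% and 52.0% of all tested genes. Both comparisons use the same 3 wild-type libraries, so their values are given side by side. In both, 9 collagens were higher and 14 lower, and none was called in opposite directions. The shared wild-type libraries favour such agreement for any gene, and its share over all tested genes is not given here. The median log2 fold change was -0.23 for Lin28a-induced and 0.13 for no-Cre libraries, with medians of -0.02 over all genes in each.

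**Figure D4:**
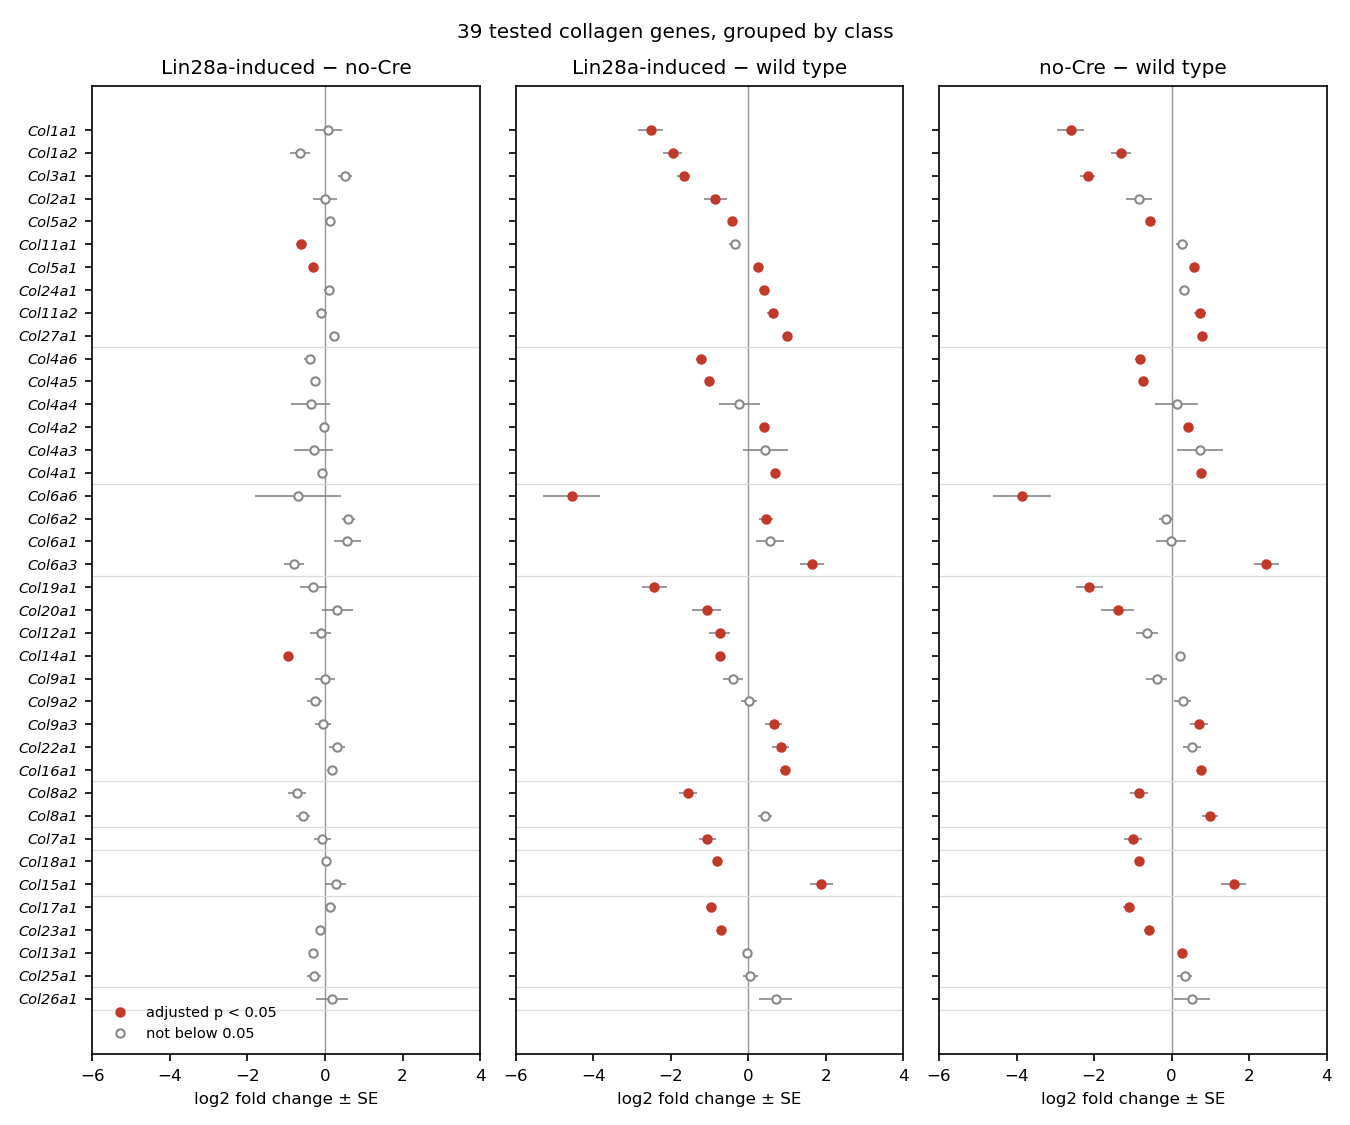
Log2 fold change and SE (horizontal axis) of the 39 tested collagen genes in 3 comparisons, ordered by class and, within a class, by the value against wild type; filled points passed the threshold. The left panel has 3 filled points, all below 0; the other panels have 29 and 25, to both sides of 0.

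Among the basement membrane type IV chains, Col4a1 and Col4a2 were higher than in wild type and Col4a5 and Col4a6 were lower, in both transgenic groups. Col4a1 had 408, 433, 473 and 558 CPM in Lin28a-induced, 518, 467 and 489 in no-Cre, and 275, 289 and 311 in wild-type libraries. All 7 transgenic libraries exceeded all 3 wild-type libraries. The log2 fold change was 0.68 ± 0.09 with induction (adjusted p = 7.32e-05) and 0.75 ± 0.10 without Cre (adjusted p = 7.52e-05). Col4a2, whose product joins that of Col4a1 in the same trimer, had 242 to 321, 265 to 294 and 198 to 222 CPM, with log2 fold changes of 0.40 ± 0.09 (adjusted p = 0.00282) and 0.43 ± 0.10 (adjusted p = 0.0035).

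Col4a5 and Col4a6 encode chains of a more restricted type IV network found under smooth muscle and some epithelia. Col4a5 had 37.5, 39.1, 35.5 and 37.9 CPM in Lin28a-induced, 41.6, 44.2 and 50.1 in no-Cre, and 67.1, 87.0 and 73.2 in wild-type libraries. The 3 groups did not overlap. Against wild type the change was -1.01 ± 0.09 on the log2 scale with induction (adjusted p = 7.69e-07) and -0.74 ± 0.09 without Cre (adjusted p = 3.34e-05). Col4a6 had log2 fold changes of -1.22 ± 0.13 (adjusted p = 6.7e-06) and -0.82 ± 0.14 (adjusted p = 0.000441), from 31.3 ± 5.48 CPM in wild type (SD, n = 3). Both genes lie on the X chromosome. Xist counts were 28876 in Lin28a-induced replicate 5, 29382 in no-Cre replicate 7 and at most 28 in each other library, and in these 2 libraries Col4a5 and Col4a6 lay within the range of the rest of their group. Col4a3 and Col4a4, the chains of the kidney filter, had 2 to 23 counts in a library and did not pass in any comparison.

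**Figure D5:**
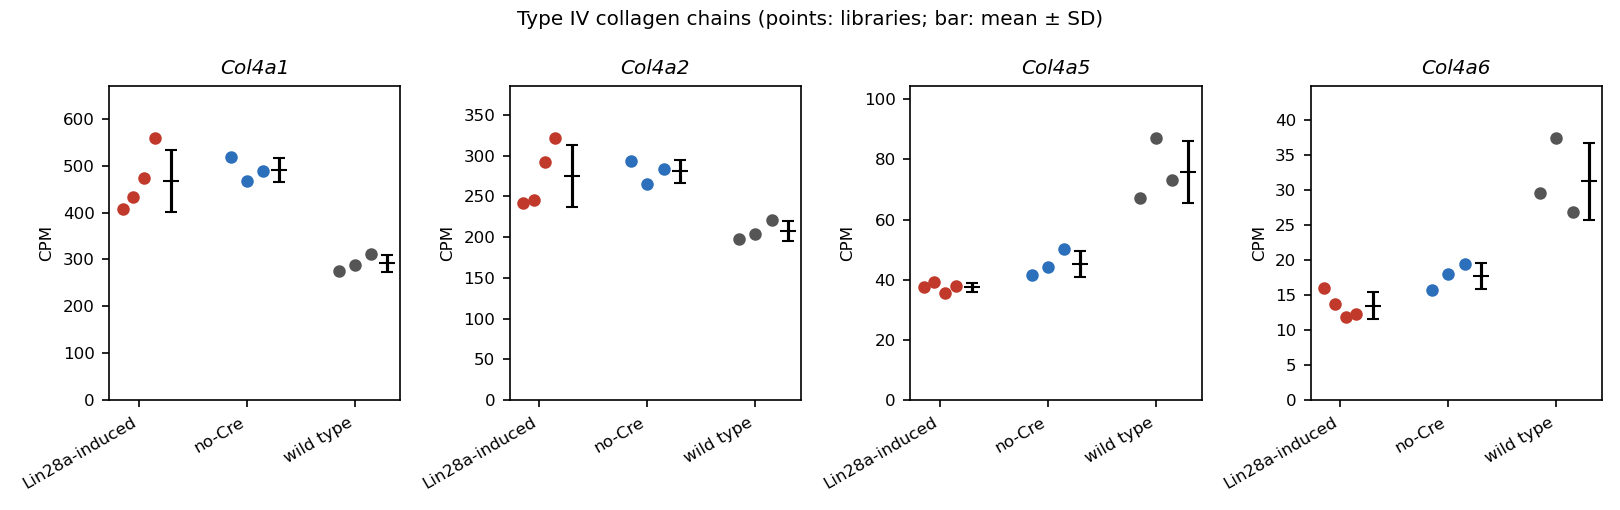
CPM of Col4a1, Col4a2, Col4a5 and Col4a6 in each library (points; axes start at 0), with the mean and SD of each group. Every transgenic library lies above wild type for Col4a1 and Col4a2 and below it for Col4a5 and Col4a6.

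The type IV genes are arranged in pairs that start next to each other on opposite strands. Against wild type Col4a1 and Col4a2 changed in one direction and Col4a5 and Col4a6 in the other, while Col4a3 and Col4a4 did not pass. The promoter windows of Col4a1 and Col4a2 are shown because these genes start 21 bases apart on chromosome 8 in RefSeq (GRCm38.p6), so that their windows share 78 bases. Capitals mark each GC box (GGGCGG) and CCAAT box (CCAAT) on either strand; the letters TATAAA were searched too and are in neither window. Within a window no marked matches overlap one another.
Col4a1, chr8:11312777-11313076, minus strand: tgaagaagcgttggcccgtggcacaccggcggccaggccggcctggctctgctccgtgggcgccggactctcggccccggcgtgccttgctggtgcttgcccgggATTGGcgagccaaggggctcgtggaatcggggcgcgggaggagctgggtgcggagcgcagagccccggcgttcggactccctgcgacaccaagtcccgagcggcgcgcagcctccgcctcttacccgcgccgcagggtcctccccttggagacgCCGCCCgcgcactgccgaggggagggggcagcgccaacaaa
Col4a2, chr8:11312555-11312854, plus strand: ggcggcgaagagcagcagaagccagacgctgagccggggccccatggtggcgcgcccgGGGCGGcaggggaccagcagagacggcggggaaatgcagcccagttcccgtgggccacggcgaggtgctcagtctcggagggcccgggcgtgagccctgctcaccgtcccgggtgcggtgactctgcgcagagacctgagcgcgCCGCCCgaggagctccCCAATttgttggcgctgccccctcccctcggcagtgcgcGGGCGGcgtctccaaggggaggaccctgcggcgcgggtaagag

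The Col4a1 window held 1 GC box and 1 CCAAT box, and the Col4a2 window held 3 and 1. The GC box of the Col4a1 window lies in the shared bases and is the same site as 1 of the 3 in the Col4a2 window. Of 32851 RefSeq promoter windows of the same length, 35.7% held a GC box, 37.4% a CCAAT box and 13.6% TATAAA. Of 37 windows found for 34 of the collagen genes, 22 held a GC box, 13 a CCAAT box and 5 TATAAA. Col4a5 and Col4a6 start 1343 bases apart on the X chromosome in RefSeq, and their windows held 1 GC box each. A motif match describes the letters and does not show that a factor binds there.

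Fibrillar collagens split into lower and higher genes against wild type. Col1a1, Col1a2, Col3a1 and Col5a2 were lower in both transgenic groups, and Col5a1, Col11a2 and Col27a1 were higher in both. Col3a1, a fibril chain of stretchable tissues, had 4.15, 5.60, 6.17 and 7.29 CPM in Lin28a-induced, 4.79, 3.78 and 3.67 in no-Cre, and 15.5, 20.6 and 19.1 in wild-type libraries. Wild type was the highest group without overlap. The log2 fold change was -1.66 ± 0.17 (adjusted p = 4.16e-06) with induction and -2.17 ± 0.19 (adjusted p = 1.78e-06) without Cre. For Col1a1 the values were -2.52 ± 0.32 and -2.60 ± 0.36, from 39.7 ± 12.2 CPM in wild type (SD, n = 3). Col27a1, a chain of cartilage fibrils, had 20.4 to 22.1, 17.2 to 19.6 and 10.3 to 10.9 CPM. It rose to 2.01 times the wild-type level with induction (adjusted p = 5.11e-07) and to 1.72 times without Cre (adjusted p = 1.16e-05).

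Some mesenchyme and smooth muscle markers were lower than in wild type and others were higher. Of 7 tested mesenchyme markers, 1 was higher and 2 lower in each comparison with wild type (42.9%). Of all tested genes, 49.3% were called with induction and 42.5% without Cre. Postn, which encodes periostin of fibroblast matrix, had -1.45 (adjusted p = 0.0035) and -1.95 (adjusted p = 0.00145) on the log2 scale, and Dcn, which encodes decorin, had -1.19 and -1.03. The higher one was Pdgfra, a growth factor receptor of mesenchyme, with 0.48 and 0.71. The summed list stood at 256 to 269 CPM in wild type, which overlaps the low end of Lin28a-induced libraries and lies below no-Cre libraries. Pdgfra made up most of that sum, with a mean of 174 CPM in wild type, while the list medians were -0.75 and -1.025. Of 7 perivascular and smooth muscle markers, 2 were higher and 2 lower with induction (57.1%), and 1 and 2 without Cre (42.9%). Lists of 7 genes are too short to compare with the shares of all tested genes. The lower ones were Tagln (-1.73 and -1.80) and Acta2 (-1.52 and -1.57), both of smooth muscle. The higher ones were Notch3 (0.77 and 0.58) and, with induction alone, Rgs5 (2.155, adjusted p = 0.00171). Without Cre Rgs5 had 0.93 (adjusted p = 0.16). Sums of that list were 230 to 264 CPM in Lin28a-induced, 214 to 225 in no-Cre and 159 to 255 in wild-type libraries. Notch3 made up most of each sum, with means of 217, 191 and 127.5 CPM. The part of these cells in the lower Col1a1, Col1a2, Col3a1 and Col5a2 was not tested.

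Col2a1 depended on a single wild-type library. Wild-type replicates 1 and 3 had 274 and 331 CPM and replicate 2 had 117, below the 120 to 153 CPM of the 7 transgenic libraries. The log2 fold change against wild type was -0.85 ± 0.30 for Lin28a-induced libraries, just past the threshold (adjusted p = 0.0499), and -0.85 ± 0.33 for no-Cre libraries (adjusted p = 0.0733). Without wild-type replicate 2 the values were -1.18 (adjusted p = 5.07e-06) and -1.17 (adjusted p = 1.26e-05), and leaving out any other library removed the call of the Lin28a-induced comparison. The same library had the lowest tail bud marker sum and the highest surface ectoderm sum, 1444 CPM. Among all libraries it also had the lowest notochord marker sum, 347 CPM, and the highest cartilage marker sum, 340 CPM. Of that cartilage sum, Hapln1 made up 232 CPM. The part of these cell types in Col2a1 was not tested.

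Several of the lower collagens belong to the junction of epidermis and mesenchyme. Col17a1 encodes the collagen of hemidesmosomes, which anchor basal epithelial cells, and Col7a1 forms the fibrils beneath them. Col17a1 had 17.2 to 21.4 CPM in Lin28a-induced, 15.8 to 19.5 in no-Cre, and 40.2, 45.8 and 29.5 in wild-type libraries. All wild-type libraries lay above all others. The log2 fold changes were -0.96 ± 0.13 (adjusted p = 7.8e-05) and -1.10 ± 0.14 (adjusted p = 7.64e-05). Col7a1 fell to 0.478 and 0.501 times its wild-type level of 11.4 ± 3.75 CPM (SD, n = 3), with adjusted p-values of 0.00147 and 0.00482. Col23a1, another transmembrane collagen, fell to 0.617 and 0.668 times. All 10 surface ectoderm markers were lower in both groups, with medians of -1.60 and -1.58. Their sum was 417 to 488 CPM in Lin28a-induced, 444 to 472 in no-Cre and 1133 to 1444 in wild-type libraries. The part of surface ectoderm in the lower Col17a1 and Col7a1 was not tested.

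The multiplexins Col18a1 and Col15a1, both basement membrane zone collagens, moved in opposite directions. Col18a1 had 362, 304, 341 and 372 CPM in Lin28a-induced, 349, 326 and 350 in no-Cre, and 561, 729 and 534 in wild-type libraries. Col15a1 had 22.6, 24.9, 33.9 and 26.3, then 22.4, 23.8 and 20.4, and in wild type 5.36, 4.62 and 12.1 CPM. In both genes wild type stood apart without overlap, above the others for Col18a1 and below them for Col15a1. Against wild type Col18a1 had -0.82 ± 0.10 (adjusted p = 3.8e-05) and -0.83 ± 0.11 (adjusted p = 9.15e-05) on the log2 scale, and Col15a1 rose by 1.89 ± 0.31 (adjusted p = 0.000984) and 1.61 ± 0.32 (adjusted p = 0.0039). Col15a1, like Col4a1 and Col4a2, is made in vessel walls. Over all tested genes, 24.3% were called higher with induction and 21.0% without Cre. All 10 endothelial markers were higher in both groups, with medians of 1.5 and 1.46. They summed to 333 to 453 and 352 to 394 CPM against 87.1, 123 and 174 in wild type, and the wild-type library with the highest sum, replicate 3, also had the highest Col15a1. The part of endothelial cells in the higher Col4a1, Col4a2 and Col15a1 was not tested. Macrophage markers were also higher than in wild type, 8 of 9 with induction and 5 of 9 without Cre, where 1 was lower. In either direction 88.9% and 66.7% of them were called, beside 49.3% and 42.5% of all tested genes. A list of 9 genes is too short to compare with those shares.

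Of the fibril-associated collagens, Col16a1 was higher and Col19a1 lower in both groups. Col16a1 had 20.0 to 27.6, 19.2 to 24.8 and 12.1 to 13.0 CPM, and rose by 0.94 ± 0.12 (adjusted p = 2.25e-05) and 0.77 ± 0.12 (adjusted p = 0.000264). Col19a1, a scarce collagen known from embryonic muscle and basement membrane zones, had 0.658 to 1.58 CPM in the transgenic libraries and 5.96, 7.90 and 3.30 in wild type. Its log2 fold changes were -2.42 ± 0.32 (adjusted p = 3.87e-05) and -2.12 ± 0.34 (adjusted p = 0.000308). The cartilage collagen Col9a3 was higher in both, and Col9a1 and Col9a2 did not pass in any comparison. Among 4 tested skeletal muscle markers, 1 was lower in each comparison with wild type. In either direction, 49.3% of all tested genes were called with induction and 42.5% without Cre. A list of 4 genes is too short to compare with those shares. Myod1 had at most 0.119 CPM in any library. Whether skeletal muscle had a part in the lower Col19a1 was not tested.

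Type VI collagen forms beaded filaments around cells from chains that assemble together, and its genes did not move as a unit. Col6a3 had 3.33, 4.29, 4.83 and 4.37 CPM in Lin28a-induced, 8.36, 6.46 and 7.07 in no-Cre, and 0.636, 2.27 and 1.10 in wild-type libraries. The groups did not overlap, with no-Cre highest. Against wild type Col6a3 rose by 1.65 ± 0.31 (adjusted p = 0.000704) with induction and 2.44 ± 0.32 (adjusted p = 6.21e-05) without Cre on the log2 scale, and by 2.29 and 3.09 without wild-type replicate 2. Col6a1 had 9 to 33 counts in a library and did not pass, and Col6a2 passed only with induction (0.46, adjusted p = 0.0388). Col6a6 had 12, 15 and 28 counts in the wild-type libraries and 0 to 3 in each other library.

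In the type VIII pair, Col8a2 was lower in both groups (-1.56 ± 0.23, adjusted p = 0.000158, and -0.84 ± 0.24, adjusted p = 0.0149), while Col8a1 was higher in no-Cre libraries (0.99 ± 0.20, adjusted p = 0.00445) and had 0.43 ± 0.19 with induction (adjusted p = 0.0912). Col8a1 stood at 57.8 ± 6.57 CPM in Lin28a-induced (SD, n = 4), 85.1 ± 10.4 in no-Cre and 42.9 ± 13.0 in wild-type libraries (SD, n = 3 each). Of the remaining genes, Col20a1 was lower in both groups. Col12a1, which coats tendon and skin fibrils, was lower, and Col22a1 and Col24a1 were higher, with induction. Col13a1 was higher without Cre. Col25a1 and Col26a1 did not pass in any comparison, and Col26a1 ran from 14.5 to 52.1 CPM within the Lin28a-induced group. Calls near the threshold rested on single libraries. Between Lin28a-induced and wild-type libraries, Col12a1 passed in 3, Col20a1 in 3, Col6a2 in 2, Col9a3 in 4 and Col24a1 in 6 of 7 fits without 1 library. Between no-Cre and wild-type libraries, Col13a1, Col20a1, Col8a2 and Col9a3 each passed in 3 of 6.

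The ratio of chains that share a trimer, taken per length within a library, does not depend on library scaling. Col4a1 to Col4a2 was 1.44 to 1.56 in Lin28a-induced, 1.53 to 1.56 in no-Cre and 1.23 to 1.25 in wild-type libraries, so the 2 transgenic groups overlapped and wild type was apart. Col1a1 to Col1a2 was 0.872 to 1.32, 0.646 to 0.701 and 1.31 to 2.23, with the no-Cre libraries below all others. Col5a1 to Col5a2 was 2.10 to 2.38, 2.69 to 3.36 and 1.12 to 1.75, which separated all 3 groups. Col8a1 to Col8a2 was 5.38 to 6.85, 4.69 to 6.05 and 0.947 to 2.44. Col4a5 to Col4a6 overlapped between all groups, from 2.69 to 3.68, as did Col6a1 to Col6a2, from 0.187 to 0.341. The absolute size of such a ratio depends on the annotated lengths, while its order across libraries does not.

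Over the 6 lists of genes that make, hold or degrade collagen, 50 of 74 tested genes (67.6%) were called against wild type with induction and 47 (63.5%) without Cre, beside 49.3% and 42.5% of all tested genes. The folding genes (10 and 9 of 20) were near those shares. The proteases and inhibitors (3 of 7 in each) are too few to compare with them. Of 20 tested folding and modification genes, 2 were higher and 8 lower with induction, and 4 and 5 without Cre. Plod1, a lysyl hydroxylase, was lower, at -0.51 (adjusted p = 9.33e-05) and -0.62 (adjusted p = 5.16e-05). Of 13 processing and crosslinking genes, 4 were higher and 5 lower, and 5 and 4 without Cre. Pcolce, which speeds the trimming of fibrillar procollagens, was lower, at -1.18 (adjusted p = 4e-06) and -1.35 (adjusted p = 4.16e-06). Of 14 basement membrane partners, 4 were higher and 9 lower in each comparison. Among them Lama5, a laminin chain, was lower, at -1.15 (adjusted p = 1.2e-06) and -1.12 (adjusted p = 4.19e-06). Of 9 receptors, 4 were higher and 2 lower with induction and 3 and 1 without Cre, and the collagen-activated kinase Ddr2 was lower, at -2.05 and -1.71. Of 11 fibril-binding genes, 4 were higher and 5 lower in each, Fmod lowest in p with -1.12 and -0.67. Of 7 proteases and inhibitors, 2 were higher and 1 lower in each, and Mmp2, a gelatinase, rose by 1.48 and 1.02. Kera was at 0 in all libraries.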

How the data were processed

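The table deposited by the authors holds raw read counts by gene symbol, with no normalization. Per the submitters' processing notes, mm10, STAR 2.3.1z4, featureCounts and DESeq2 were used, and the labels' protocols name stranded single-read libraries. The annotation is not given in the sources used here, nor is the strand setting or the handling of multi-mapping reads. Genes were filtered with filterByExpr, TMM-scaled and fitted with edgeR 4.0.16 (robust quasi-likelihood test, 10 libraries in 1 fit, 16340 tested genes, Benjamini-Hochberg threshold 0.05). CPM used TMM-scaled totals, and exon lengths, 3′ UTRs and coordinates came from GENCODE M21, which held all 43 collagen symbols. Exons of 10 of the 43 overlap a gene of the opposite strand by at most 6.07% of their bases. The edgeR script was tested on simulated data. Set as Lin28a-induced against no-Cre, it found 41 of 80 changes of 1.5 times, 49 of 63 of 2 times and 52 of 57 of 4 times. Small changes can thus be missed.

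The members and lists were chosen with earlier results of these data known. Named by rule were the collagens called between Lin28a-induced and no-Cre libraries, up to 6 per direction with the smallest p against wild type, the highest chain of each class, and up to 2 genes per list with the smallest p. Other collagens given values, and Acan, Myod1, Xist, Pdgfra, Dcn, Acta2 and Rgs5, were named after their values were seen. Alternatives were DESeq2 1.42.0, limma 3.58.1 (voom), DESeq2 size factors, no filter, at least 1 CPM in 3 libraries, fits of only the groups compared, a spread that is not robust, the replicate number as a block, other lengths and scaling, an 8-base seed match, and leaving out each library. R 4.3.3, Python 3.11.15, pandas 2.3.3, numpy 2.4.6 and matplotlib 3.10.9 were used.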

Additional observations from a re-analysis of the deposited data

Results flagged for a closer look

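Within the 4 Lin28a-induced libraries, 2 collagens had a library far from the other 3, by a gap to its neighbour above Dixon's 95% critical value for 4 samples. Chance alone marks about 1 in 20 groups, and all 39 tested collagens were examined, so 2 can be reached by chance. Col4a4 in replicate 3 was the highest of 4, at 0.667 CPM, with a gap of 0.955 of the range, and rests on 23 counts. Col8a1 in replicate 5 was the lowest of 4, at 47.9 CPM, with a gap of 0.937 of the range; the other 3 had 60.5 to 61.4 CPM. Neither gene passed between Lin28a-induced and no-Cre libraries.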

How the results depend on the processing

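Between Lin28a-induced and no-Cre libraries 3 collagens were called, 8 with DESeq2, 10 when only these 2 groups were fitted, and 1 to 2 when any library was left out; the cause was not tested. Against wild type the 29 calls of Lin28a-induced libraries ranged from 24 to 29 and the 25 calls of no-Cre libraries from 21 to 28 without 1 library, and no other setting moved either count by over 1.5 times. Among values for single genes, 921 kept their direction and side of the threshold, 64 lost the call, 33 gained it and 3 reversed. The reversals were all of Col13a1 against wild type, which did not pass (log2 -0.04): leaving out 1 library gave -0.161 to 0.0297, with the positive values 0.0297 without wild-type replicate 1 and 0.0267 without wild-type replicate 3, and the replicate block gave 0.0891. No scaling moved the median of all genes by more than 0.03.

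Lin28a-induced and wild-type libraries share replicate numbers 2 and 3, but the labels do not pair them and the correlations of their deviations were -0.079 for replicate 3 and -0.028 for replicate 2. With the replicate block, 21 collagens were called, 20 of them among the 29; Col8a1 was added, and Col2a1, Col4a2 (0.19, adjusted p = 0.34), Col5a1 (adjusted p = 0.344), Col6a2, Col9a3, Col11a2 (adjusted p = 0.161), Col12a1, Col20a1 and Col24a1 were not called. Over all genes the calls went from 8050 to 3831. No paired fit was possible for the other comparisons, which share no numbers.

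With the longest transcript as length, the summed collagen level was 329.9, 352.9 and 383.6 CPM per kilobase in Lin28a-induced, no-Cre and wild-type libraries in place of 265.6, 284.9 and 301. Col1a1 to Col1a2 was then 0.528, 0.322 and 0.809, and Col4a1 to Col4a2 1.66, 1.71 and 1.37; this follows from the lengths. The 8-base let-7 match was in 4 collagens and the 8-base miR-29 match in 16. Depth limits what can be said of the genes with few counts: Col4a3, Col4a4, Col6a1, Col6a6 and the 4 untested genes.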
